A study of Homo sapiens with 16 samples.

Results

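The IFIT family, the interferon-induced proteins with tetratricopeptide repeats, was followed through 2 ovarian carcinoma cell lines treated with the PARP inhibitor olaparib. Its members were taken by gene symbol, which gave 4 genes (IFIT1, IFIT2, IFIT3 and IFIT5) of the 59428 gene rows in the count table. The symbol alone set which genes belong, but the members were chosen with earlier results of these data known.

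The study grew UWB1.289 cells, a serous ovarian carcinoma line with a BRCA1 mutation, and OVCAR3 cells, a line with intact BRCA1, to ask what PARP inhibition does to gene expression in each. UWB1.289 received 3.5 µM olaparib in DMSO or DMSO alone, OVCAR3 received 7.5 µM olaparib in DMSO or DMSO alone, and RNA was harvested from every culture after 96 h. Each dose was the half-maximal inhibitory concentration found for that line, and the media differed (a mammary epithelial medium mixed with RPMI1640 and low serum for UWB1.289, RPMI1640 with high serum and insulin for OVCAR3). The experiment was repeated 4 times, which gave 4 groups of 4 libraries and 16 libraries in all. Because each BRCA1 state was carried by a single line, with its own dose and medium, the parts of line, BRCA1, dose and medium in any difference between the lines cannot be told apart. The labels do not say whether replicates came from separately thawed cultures, so the p-values measure only the spread between these libraries.

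IFIT genes are silent or low in most resting cells and are among the genes that type I and type III interferons induce most strongly. Interferon receptors activate the kinases JAK1 and TYK2, and these signal to transcription factors that bind interferon-stimulated response elements in front of the genes. IRF3, activated downstream of the cytosolic nucleic acid sensors, can also induce IFIT genes without secreted interferon. The proteins bind foreign RNA: IFIT1 binds capped RNA whose first nucleotides lack ribose methylation and blocks its translation, IFIT3 binds and stabilises IFIT1, IFIT2 joins complexes with both, and IFIT5 binds RNA with a 5′ phosphate end. Several members also contact the translation initiation factor eIF3.

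All 4 genes lie on the plus strand of chromosome 10 within 137.9 kb, from position 89283694 to 89421605 of hg38 (GENCODE version 44). IFIT2 (ENSG00000119922.11) occupies 89283694 to 89309271, IFIT3 (ENSG00000119917.15) 89327307 to 89377473, IFIT1 (ENSG00000185745.10) 89392546 to 89406487 and IFIT5 (ENSG00000152778.10) 89414568 to 89421605. Each canonical transcript has 2 exons, both of which hold coding sequence, and the encoded proteins are of similar size, with 478 residues for IFIT1, 472 for IFIT2, 490 for IFIT3 and 482 for IFIT5. The libraries were made from the 3′ ends of mRNAs, so reads are to be found mainly in the 3′ untranslated region of the last exon, which runs from 89403713 to 89406487 in IFIT1, 89307376 to 89309271 in IFIT2, 89340129 to 89340968 in IFIT3 and 89418649 to 89420997 in IFIT5. No run of 30 bases was shared between the canonical transcripts of any pair of the 4 members. IFIT1B, a paralog inside the cluster, shared 89 such runs with IFIT1 and 4 with IFIT5, none of them in the last 500 bases. LIPA, on the opposite strand, spans IFIT2, IFIT3 and IFIT1 as a gene, but its exons overlapped 0 bases of their canonical transcripts.

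The promoters are shown because the 4 genes moved together in UWB1.289 and because the interferon-stimulated response element has a known core. RefSeq windows (GRCh38.p14) were matched for 3 of the 4 members, IFIT1, IFIT3 and IFIT5, and each run below is the 250 bases before an annotated start on the plus strand, 5′ to 3′. Capitals mark the element core GAAANNGAAA, searched on both strands and found in each of these windows on the minus strand, where it reads TTTCNNTTTC on the plus strand. No 2 matches overlapped.
IFIT1, chr10:89392373-89392622: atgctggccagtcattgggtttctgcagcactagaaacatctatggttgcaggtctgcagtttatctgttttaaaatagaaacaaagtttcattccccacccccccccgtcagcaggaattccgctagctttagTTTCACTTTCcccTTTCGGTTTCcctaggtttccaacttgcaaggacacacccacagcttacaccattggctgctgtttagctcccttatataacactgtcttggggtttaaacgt
IFIT3, chr10:89327747-89327996: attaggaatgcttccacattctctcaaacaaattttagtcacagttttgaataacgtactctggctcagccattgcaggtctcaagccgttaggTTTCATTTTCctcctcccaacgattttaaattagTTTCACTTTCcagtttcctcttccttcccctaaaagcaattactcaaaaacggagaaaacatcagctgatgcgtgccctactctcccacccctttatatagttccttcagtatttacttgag
IFIT3, second annotated start, chr10:89332279-89332528: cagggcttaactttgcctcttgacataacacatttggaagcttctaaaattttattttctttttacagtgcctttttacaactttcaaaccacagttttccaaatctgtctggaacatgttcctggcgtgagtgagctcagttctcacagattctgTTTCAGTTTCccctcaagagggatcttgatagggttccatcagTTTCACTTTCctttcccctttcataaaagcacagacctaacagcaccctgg
IFIT5, chr10:89414318-89414567: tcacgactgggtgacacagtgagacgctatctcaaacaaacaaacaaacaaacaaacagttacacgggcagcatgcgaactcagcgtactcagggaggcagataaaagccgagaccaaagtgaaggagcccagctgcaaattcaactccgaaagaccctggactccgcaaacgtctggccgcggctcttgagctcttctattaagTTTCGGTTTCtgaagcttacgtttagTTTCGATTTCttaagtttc

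Each of these windows held 2 matches. In IFIT1 they lay 116 to 107 and 103 to 94 bases before the start. In IFIT5 they lay closest to the start, at 45 to 36 and 19 to 10 bases before it, and in the first IFIT3 window farthest, at 156 to 147 and 122 to 113. The second IFIT3 window had them at 94 to 85 and 51 to 42 bases before its start. Of 35116 RefSeq windows of the same length, 3.02% held at least 1 match and 0.225% held at least 2. Among 24 windows of 16 other interferon-inducible genes, 54.2% held at least 1 and 33.3% at least 2. The IFIT1B window held 0 matches. A match is only a description of these letters, and binding was not measured.

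The 16 libraries held 5599571 to 7730228 counts each, and mitochondrial genes took 10.4 to 13.7% of them. None of the 24 pairs of libraries within a group was identical. Epithelial markers checked the labelled cell type: their summed level was a median of 8258 CPM in UWB1.289 with DMSO, 6751 with olaparib, 4844 in OVCAR3 with DMSO and 3070 with olaparib, although WT1 had 0 counts in UWB1.289 with DMSO and 4 with olaparib. CPM is a gene's share of the library total, scaled by TMM over the 16 libraries and multiplied up to 1000000, and because the libraries count transcript ends they were not divided by gene length. In bulk RNA, fewer expressing cells and less RNA per cell cannot be told apart.

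**Figure D1:**
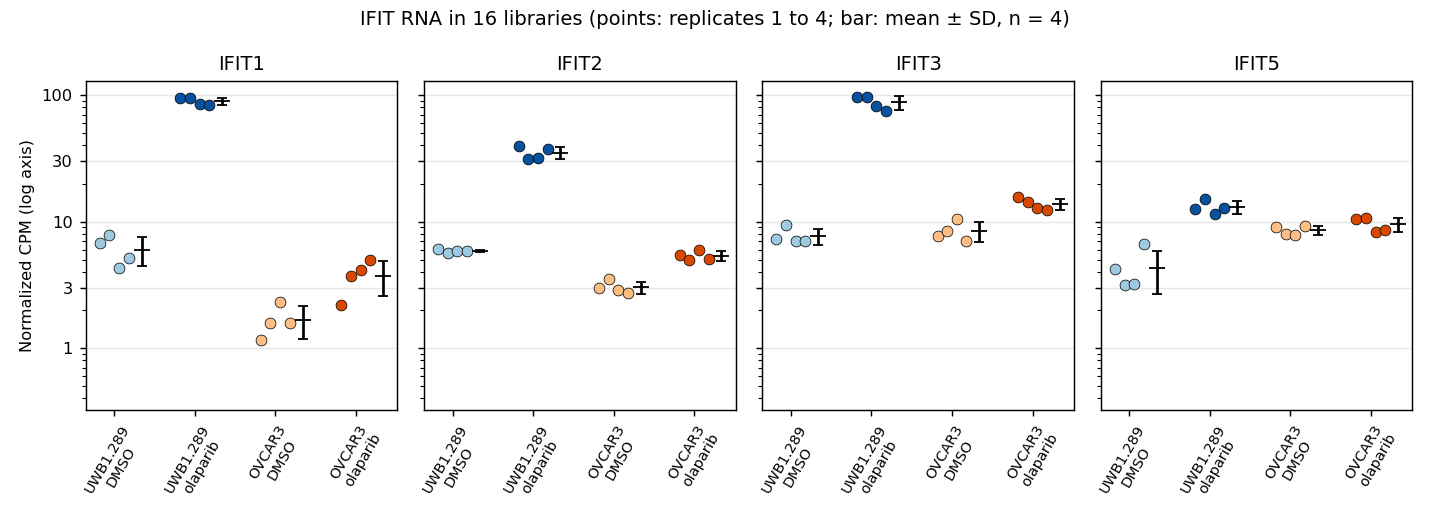
Normalized CPM (log axis) of IFIT1, IFIT2, IFIT3 and IFIT5 in each of the 16 libraries, by line and treatment. Points are replicates 1 to 4 from left to right, and bars are the mean ± SD of 4 libraries; the 4 UWB1.289 olaparib points sit above those of each other group in every panel.

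In UWB1.289, olaparib raised all 4 members, IFIT1 and IFIT3 by more than 10-fold, IFIT2 by about 6-fold and IFIT5 by about 3-fold. For comparison, 1.93% of the 12748 genes tested in this line were called higher, a call being an adjusted p under 0.1 in the edgeR fit with over 2-fold change and a mean normalized count over 10, and 7.77% were higher at that adjusted p whatever the size. The median log2 fold change of the 4 members was 3.05, against -0.00 over all genes tested. In no member did a treated library overlap a control library, but the share of all genes without such overlap was not counted.

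IFIT1 stood at 6.78, 7.84, 4.31 and 5.15 CPM in the 4 UWB1.289 DMSO libraries and at 94.8, 95.02, 84.4 and 83.2 CPM in the 4 olaparib libraries. The lowest treated library was thus far above the highest control. The means were 6.02 ± 1.59 and 89.4 ± 6.43 CPM (SD, n = 4 each), and the fold change was 14.9 (log2 3.90, SE 0.142, edgeR adjusted p = 1.69e-14). By size of log2 fold change IFIT1 ranked 2 among the 12748 genes.

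IFIT3, the partner that stabilises IFIT1, had nearly the same levels. It measured 7.23, 9.34, 7.02 and 6.998 CPM with DMSO and 96.0, 97.5, 81.7 and 75.1 CPM with olaparib. Replicates 1 and 2 were the higher pair with olaparib for both IFIT1 and IFIT3. The fold change of IFIT3 was 11.5 (log2 3.52, SE 0.133, edgeR adjusted p = 2.14e-14), which placed it at rank 8.

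IFIT2 started from a control level of 6.03, 5.67, 5.91 and 5.81 CPM. With olaparib it reached 39.5, 31.5, 31.9 and 37.2 CPM. Replicates 1 and 4 were the higher pair here, so the order of the treated libraries differed from that of IFIT1 and IFIT3. The fold change was 5.98 (log2 2.58, SE 0.142, edgeR adjusted p = 1.09e-11, rank 26).

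IFIT5, which binds RNA with a 5′ phosphate end, moved least. Its control libraries lay at 4.22, 3.17, 3.19 and 6.60 CPM and its treated libraries at 12.6, 15.1, 11.4 and 12.9 CPM. Replicate 4 was the high control, and it was still below every treated library. The fold change was 2.97 (log2 1.57, SE 0.223, edgeR adjusted p = 4.08e-05, rank 103).

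Leukocyte markers rose as a sum in this line, but only 2 of 7 were tested and CD14 alone passed an adjusted p of 0.1. The summed level of 7 markers ran from 7.66 to 11.6 CPM with DMSO and from 15.8 to 19.7 CPM with olaparib. CD14 rose (log2 fold change 1.28, edgeR adjusted p = 0.00374), PTPRC had 162 counts in the 4 control libraries and 195 in the 4 treated ones, and 3 of the 7 markers were at 0 in each group, NKG7 and LILRA4 among them. Of 7 epithelial markers tested in UWB1.289, KRT8 and KRT18 fell (log2 fold changes -0.30 and -0.40) and MUC16 rose (0.69). The part of these transcripts in the IFIT values was not tested.

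In OVCAR3, the changes of the members ranged from 1.11-fold to 2.25-fold. IFIT1 was the only member called higher, IFIT2 and IFIT3 passed the adjusted p threshold with changes below 2-fold, and IFIT5 did not pass it. Over all 13031 genes tested in OVCAR3, 2.90% were called higher and 15.5% were higher at an adjusted p below 0.1 whatever the size. The median log2 fold change of the 4 members was 0.77, against -0.01 over all genes tested.

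IFIT1 was scarce in this line, with 7, 9, 16 and 11 raw counts in the DMSO libraries and 14, 24, 29 and 36 in the olaparib libraries. On the CPM scale these were 1.16, 1.58, 2.32 and 1.58 with DMSO and 2.18, 3.75, 4.13 and 4.93 with olaparib. The groups overlapped, since DMSO replicate 3 was above olaparib replicate 1. The fold change was 2.25 (95% interval 1.37 to 3.67, log2 1.17, SE 0.340, edgeR adjusted p = 0.0160).

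For IFIT2 the OVCAR3 libraries measured 2.98, 3.50, 2.90 and 2.73 CPM with DMSO and 5.44, 4.99, 5.98 and 5.07 CPM with olaparib. For IFIT3 they measured 7.77, 8.40, 10.4 and 7.03 CPM with DMSO and 15.5, 14.4, 12.8 and 12.5 CPM with olaparib. Neither gene's groups overlapped, though the share of all genes tested in OVCAR3 without overlap was not counted. IFIT2 rose 1.78-fold (log2 0.83, SE 0.243, edgeR adjusted p = 0.0159) and IFIT3 rose 1.64-fold (log2 0.71, SE 0.170, edgeR adjusted p = 0.00417).

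IFIT5 showed no detectable difference in OVCAR3. It measured 9.09, 8.05, 7.82 and 9.18 CPM with DMSO and 10.4, 10.8, 8.26 and 8.64 CPM with olaparib, and the groups overlapped. The log2 fold change was 0.16 with a 95% interval of -0.21 to 0.52 (edgeR adjusted p = 0.567). In this line the 7 leukocyte markers summed to 1.82 to 2.90 CPM with DMSO and 1.99 to 4.04 CPM with olaparib, and 6 of the 8 epithelial markers fell at an adjusted p below 0.1 while 1 rose (median log2 fold change -0.63), with KRT8 and KRT18, keratins of simple epithelia, called lower (-1.05 and -1.02). The part of these changes in the IFIT values was not tested.

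**Figure D2:**
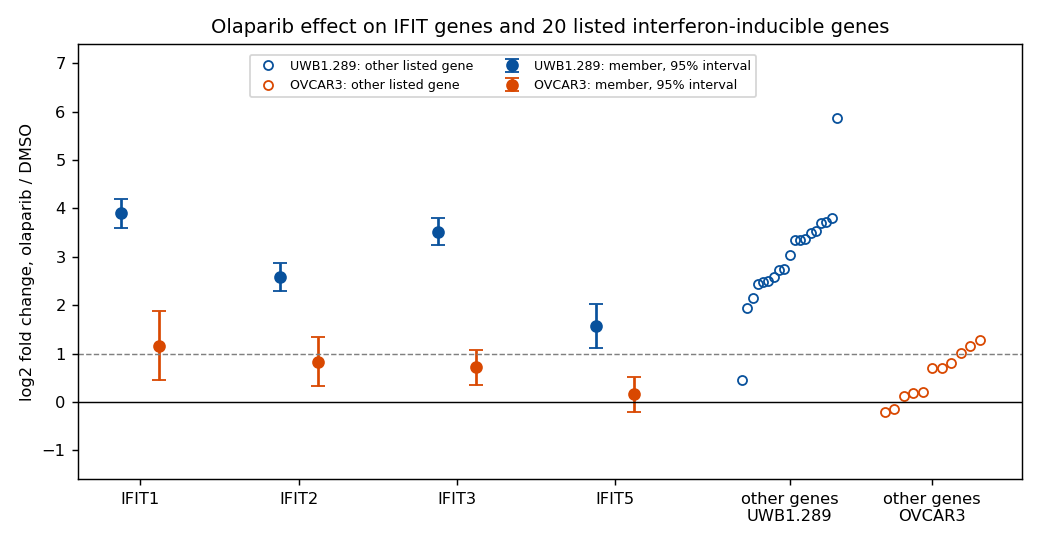
Log2 fold change of olaparib over DMSO for the 4 IFIT genes (filled points, bars the 95% interval of the edgeR fit) and for the tested genes of a list of 20 other interferon-inducible genes (open points, in order of size), in UWB1.289 (blue) and OVCAR3 (orange). The dashed line marks 2-fold; all 4 UWB1.289 members lie above it, and of the OVCAR3 members IFIT1 alone, at 1.17.

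The response was larger in UWB1.289 than in OVCAR3 for each of the 4 genes, as tested by the interaction of line and treatment over all 16 libraries. All 4 differences passed an adjusted p of 0.1, against 5.09% of the 14243 genes tested that passed it in this direction. The log2 difference was 2.81 for IFIT3 (SE 0.209, edgeR adjusted p = 1.58e-10), 2.73 for IFIT1 (SE 0.359, edgeR adjusted p = 5.22e-06), 1.75 for IFIT2 (SE 0.251, edgeR adjusted p = 1.89e-05) and 1.41 for IFIT5 (SE 0.285, edgeR adjusted p = 0.00155). IFIT3 therefore changed 7.02-fold more in UWB1.289 and IFIT5 2.66-fold more. The doses were 3.5 and 7.5 µM, so these are differences between the responses of the lines at unequal doses.

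Without drug the lines already differed in 3 members, and not in 1 direction. These values share their DMSO libraries with the olaparib effects above. IFIT1 was higher in UWB1.289, at 6.02 ± 1.59 against 1.66 ± 0.482 CPM in OVCAR3 (SD, n = 4 each), where the log2 fold was 1.83 (edgeR adjusted p = 4.80e-06, SE 0.311), and was called higher, as were 18.7% of the 13366 genes tested. IFIT2 was also higher, at 5.85 ± 0.151 against 3.02 ± 0.335 CPM, where the log2 fold was 0.95 (edgeR adjusted p = 0.00120, SE 0.253), below 2-fold. IFIT5 went the other way, at 4.30 ± 1.61 against 8.54 ± 0.700 CPM, with every UWB1.289 library below every OVCAR3 library and a difference in log2 level of -0.97 (SE 0.237, edgeR adjusted p = 5.46e-04). At an adjusted p below 0.1 and any size, 39.8% of all genes were higher and 40.1% lower in UWB1.289, so a difference of this kind was common. The fold threshold of these calls turned on single libraries: IFIT2 was called at 1.02 without OVCAR3 DMSO replicate 2, and IFIT5 at -1.25 without UWB1.289 DMSO replicate 4 and at -1.02 without OVCAR3 DMSO replicate 3. For IFIT3 the groups overlapped and the log2 difference was -0.15, with a 95% interval of -0.55 to 0.26 (edgeR adjusted p = 0.514).

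With olaparib all 4 members were higher in UWB1.289, with no overlap between the lines. How many of all genes also had no overlap between the lines was not counted. The fold was 23.3 for IFIT1 (89.4 ± 6.43 against 3.75 ± 1.16 CPM, edgeR adjusted p = 2.92e-14), 6.45 for IFIT2 (35.0 ± 3.94 against 5.37 ± 0.450 CPM, edgeR adjusted p = 1.64e-11) and 6.30 for IFIT3 (87.6 ± 10.9 against 13.8 ± 1.42 CPM, edgeR adjusted p = 1.38e-12). These 3 were called higher, as were 18.6% of the 13398 genes tested. IFIT5 differed 1.35-fold (13.0 ± 1.56 against 9.52 ± 1.26 CPM, edgeR adjusted p = 0.0288) and was not called, while 38.4% of all genes were higher at this p threshold at any size.

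The order of the 4 groups was therefore not the same for each gene. UWB1.289 with olaparib was highest for all 4 members. For IFIT1 and IFIT2 the next levels were those of UWB1.289 with DMSO and OVCAR3 with olaparib, whose ranges overlapped and whose difference was not tested, and OVCAR3 with DMSO was lowest. For IFIT3, OVCAR3 with olaparib came next, and both DMSO groups lay below it with overlapping ranges. For IFIT5 both OVCAR3 groups came next and overlapped, and UWB1.289 with DMSO was lowest.

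Replicate spread was small beside the UWB1.289 changes. Over the 16 combinations of gene and group the coefficient of variation ran from 2.57 to 37.5%, with a median of 12.3%, and it exceeded the value expected from counting alone in 10 of them. For IFIT1 in OVCAR3 with DMSO, 29.1% of variation stood against 30.5% expected from counting. The widest, IFIT5 in UWB1.289 with DMSO at 37.5%, stood against 18.5% from counting. The narrowest, IFIT2 in UWB1.289 with DMSO at 2.57%, was below the 16.1% from counting. The 4 genes together had 123 to 1470 raw counts in a library.

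**Figure D3:**
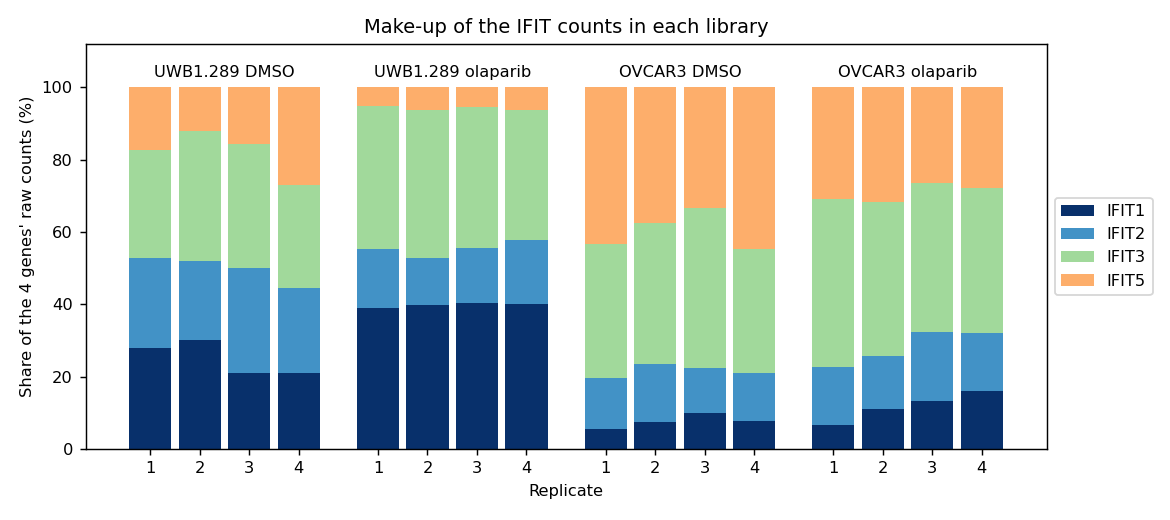
Share (%) of the raw counts of the 4 IFIT genes that each gene took, in each of the 16 libraries, by group and replicate. The IFIT1 share in UWB1.289 lies between 21.0 and 30.1% with DMSO and between 39.0 and 40.3% with olaparib, and the IFIT5 share has a median of 16.5% with DMSO and 5.81% with olaparib.

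The make-up of the family changed along with its total. IFIT1 took a median of 24.5% of the family's counts in UWB1.289 with DMSO (21.0 to 30.1%) and 39.8% with olaparib (39.0 to 40.3%). IFIT5 took 16.5% (12.2 to 26.9%) with DMSO and 5.81% (5.17 to 6.32%) with olaparib. In OVCAR3 IFIT5 was a large component, with a median of 40.4% with DMSO (33.3 to 44.8%) and 29.4% with olaparib (26.5 to 31.8%), while IFIT1 took 7.50 and 12.2%.

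Ratios of members within a library, which do not depend on scaling, were compared between treatments by a two-sided exact permutation test of 4 against 4 libraries, for which the smallest possible p is 0.0286. In UWB1.289 all 6 ratios reached this smallest p, with no overlap (Benjamini-Hochberg adjusted exact p = 0.0429 over 12 tests). The ratio of IFIT1 to IFIT5 rose most, by 2.27 on the log2 scale, from a mean of 0.51 ± 0.68 to 2.78 ± 0.13 (SD, n = 4 each). The ratios of IFIT3 to IFIT5, IFIT1 to IFIT2, IFIT2 to IFIT5 and IFIT1 to IFIT3 rose by 1.87, 1.35, 0.92 and 0.40, and that of IFIT2 to IFIT3 fell by 0.95. From the largest change to the smallest the members stood in the order IFIT1, IFIT3, IFIT2 and IFIT5, and each step of that order passed the test.

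In OVCAR3 the ratios of IFIT2 and IFIT3 to IFIT5 rose by 0.66 and 0.57 (exact permutation p = 0.0286 each, adjusted 0.0429). The ratio of IFIT1 to IFIT5 rose by 0.97 with overlapping groups (exact permutation p = 0.0571, adjusted 0.0762), and did not pass in 6 of the 8 repeats that left out 1 library (DMSO replicates 1, 2 and 4 and olaparib replicates 2, 3 and 4). In such repeats the smallest possible p is larger than with 4 against 4 libraries, so a ratio passes less readily. The other 3 ratios did not pass an adjusted p of 0.1, with changes of 0.31 for IFIT1 to IFIT2, 0.40 for IFIT1 to IFIT3 and 0.10 for IFIT2 to IFIT3. Without olaparib replicate 1 the change of IFIT1 to IFIT3 was 0.69 and passed (adjusted exact permutation p = 0.0686). Whether the ratios changed differently in the lines was not tested.

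As a description of the 16 libraries, which share 2 lines and 2 treatments, the genes nearest to each member in log2 CPM were sought among 13233 others. IFIT1 was nearest to IFIT2 (Pearson r = 0.982), the double-stranded RNA sensor OAS3 (0.979) and the transcription factor IRF7 (0.978). IFIT2 was nearest to the helicase gene HELZ2 (0.985), IFIT1 (0.982) and IRF7 (0.981). IFIT3 was nearest to the antiviral GTPase MX1 (0.978), the chemokine CXCL10 (0.972) and the ubiquitin ligase TRIM25 (0.969). IFIT5 had lower values, 0.918 with the ADP-ribosyltransferase PARP14, 0.890 with the immunoproteasome subunit PSMB9 and 0.884 with the transcription factor JUN. Within the family r was 0.982 for IFIT1 and IFIT2, 0.944 for IFIT2 and IFIT3, 0.921 for IFIT1 and IFIT3, 0.688 for IFIT3 and IFIT5, 0.478 for IFIT2 and IFIT5 and 0.411 for IFIT1 and IFIT5. IFIT5 was thus the member whose levels over the 4 groups were least like those of the others.

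The pathway above the family was read from a list of 24 interferon ligands, receptors and signalling genes. In UWB1.289, 15 were tested, 7 rose at an adjusted p below 0.1 and 5 of these were called, with none lower and a median log2 fold change of 0.43. Among the called genes were the ubiquitin-like modifier ISG15 (log2 2.29), the transcription factors IRF7 (1.65) and IRF1 (1.42) and the ISG15 protease USP18 (1.499), and IRF9 and STAT2 rose by 0.97 and 0.55. In OVCAR3, 16 were tested, 9 rose and 0 were called in the edgeR fit, with a median of 0.38; 9 had an unadjusted p below 0.05, and DESeq2 called 0 as well. Among those 9 were ISG15 (0.84), IRF7 (0.77), IRF1 (0.72), IRF3 (0.62), TYK2 (0.56), IRF9 (0.55) and JAK1 (0.50).

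Transcripts of the listed interferon ligands were near the limit of counting, and IFNA1 was the only IFNA gene on the list. IFNB1 had 0 counts in both UWB1.289 groups and in OVCAR3 with DMSO, and 1 count in OVCAR3 with olaparib, while IFNA1 and IFNK had 0 in all 16 libraries. IFNL1 had 3 counts in the 4 UWB1.289 DMSO libraries and 14 in the 4 olaparib libraries, 9 of them in 1 library, against 4 and 6 in OVCAR3. IFNL2 had 7 counts in UWB1.289 with olaparib and 0 with DMSO. IFNE had 7 counts in OVCAR3 with DMSO and 6 with olaparib, against 2 and 0 in UWB1.289. None of these genes passed the filter on low counts, so they were not tested, and a count of 0 allows up to 3 counts.

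Of 12 nucleic acid sensors and their adaptors, 9 were tested in UWB1.289 and 3 were called higher: IFI16, a DNA sensor (log2 1.83), and the RNA helicases IFIH1 (1.80) and DHX58 (1.31). Another 2, TICAM1 and IKBKE, rose by 0.70 and 0.60. In OVCAR3, 8 were tested and the kinase IKBKE (1.13) and the adaptor TICAM1 (1.07) were called, with STING1 rising by 0.58. The lowest fitted change was -0.98, and 0 were lower at an adjusted p below 0.1. ZBP1 went the other way, with 31 counts in OVCAR3 with DMSO and 8 with olaparib. It was below the filter in the edgeR fit and passed an adjusted p of 0.1 with DESeq2. CGAS had 3 counts in OVCAR3 with DMSO and 2 with olaparib and was not tested there.

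The list of 17 partners in cap methylation and translation, the enzymes that methylate the cap and its first riboses and the subunits of eIF3, held 0 called genes in either line, by edgeR and by DESeq2. In UWB1.289, 15 were tested, with a median log2 fold change of -0.01, and 3 had an unadjusted p below 0.05. The cap methyltransferase CMTR1 (0.49, edgeR adjusted p = 0.0652) and EIF3J (0.22, edgeR adjusted p = 0.0765) rose. In OVCAR3, 2 rose and 3 fell among 15 tested, the same 5 with an unadjusted p below 0.05, and the changes lay between -0.37 and 0.30.

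Set beside 20 other strongly interferon-inducible genes, the 4 members had fitted changes spread through the list in UWB1.289. There 19 of the 20 were tested, 19 rose and 18 were called, with a median log2 fold change of 3.04 beside 3.05 for the members. By fitted log2 fold change 1 gene, the chemokine CXCL10, was above IFIT1, 5 were above IFIT3, 13 above IFIT2 and 18 above IFIT5, which exceeded only BST2 (0.46). The chemokines CXCL10, CCL5 and CXCL11 had only 7, 10 and 17 raw counts over the 4 DMSO libraries and 405, 127 and 186 with olaparib. RSAD2, OASL and MX2 had 44, 42 and 29 with DMSO and 573, 325 and 184 with olaparib. These genes passed the filter through the treated group, so the size and place of their changes are uncertain. They stay in the counts and the median above. The filter thus favoured a rise in part of this list. In OVCAR3, 11 of the 20 were tested, 6 rose and 3 were called, IFI27 (1.27), OAS3 (1.16) and BST2 (1.01), with a median of 0.70. Among these 11, IFI27 alone was above IFIT1, and 8 were above IFIT5. CXCL10 and OAS2 were below the filter on low counts there and have no place in this order. Each had 1 raw count over the 4 DMSO libraries, and they had 24 and 29 with olaparib. Both passed an adjusted p of 0.1 with DESeq2 but were not called.

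**Figure D4:**
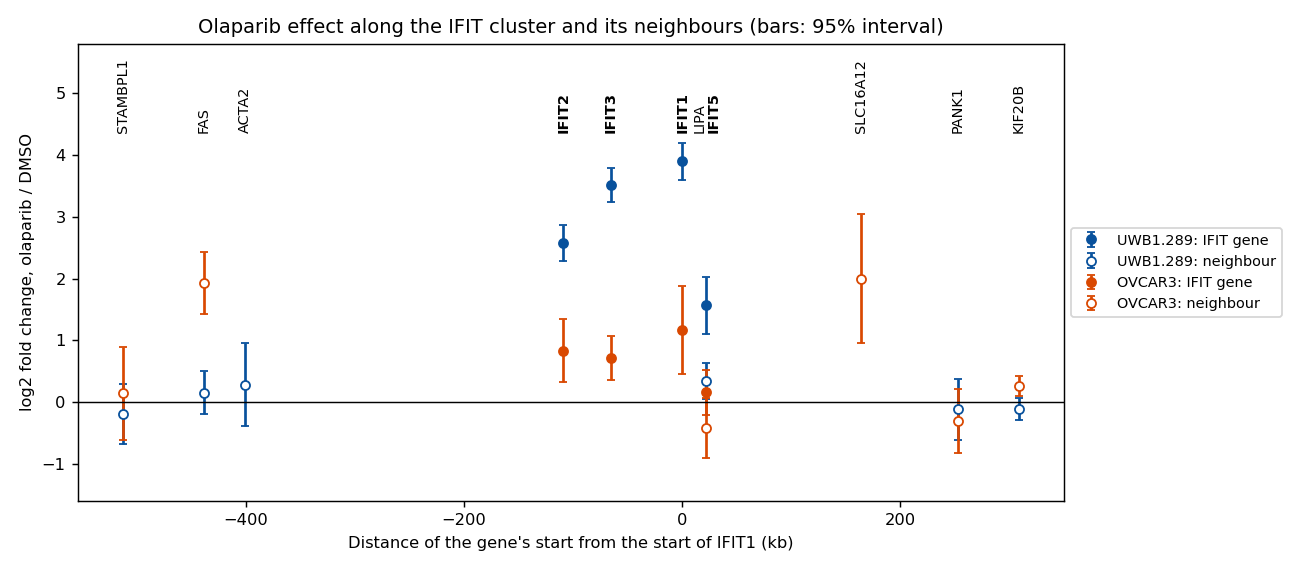
Log2 fold change of olaparib over DMSO (bars the 95% interval) against the distance in kb of each gene's start from that of IFIT1, for the IFIT genes (filled) and the tested neighbours (open) in UWB1.289 (blue) and OVCAR3 (orange). In UWB1.289 the fitted values of the 4 IFIT genes lie above those of the tested neighbours, while in OVCAR3 FAS (1.93) and SLC16A12 (whose DMSO counts were near the floor) have the highest fitted values. Starts are those of the gene records, by which LIPA and IFIT5 coincide at this scale. The canonical LIPA transcript, on the minus strand, starts at position 89251775, outside the cluster on the IFIT2 side.

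The neighbouring genes on chromosome 10 are given beside the family, with no test of the difference between them. In UWB1.289, 6 of 9 listed neighbours were tested and 0 passed an adjusted p of 0.1 with edgeR or with DESeq2. The only neighbour with an unadjusted p below 0.05 in the edgeR fit was LIPA: the lysosomal lipase gene that overlaps the cluster had a log2 fold change of 0.34 (95% interval 0.04 to 0.63, edgeR adjusted p = 0.148). In OVCAR3 the death receptor FAS rose by 1.93 (edgeR adjusted p = 6.65e-06), from 2.27 ± 0.471 to 8.66 ± 1.23 CPM (SD, n = 4 each), and KIF20B rose by 0.26. The transporter SLC16A12 was called too (edgeR adjusted p = 0.00617), from 0 to 11 raw counts in a DMSO library and 17 to 24 in an olaparib library, so its control level was near the floor and the size of its change is uncertain. CH25H, the interferon-inducible cholesterol hydroxylase gene next to the cluster, had 4 counts in OVCAR3 with DMSO and 39 with olaparib and was below the filter on low counts in the edgeR fit. With DESeq2, CH25H and ACTA2 passed an adjusted p of 0.1 as well, which made 5 neighbours in OVCAR3 against 3 with edgeR. The interaction for FAS was -1.78 (edgeR adjusted p = 8.28e-05), opposite in sign to that of the IFIT genes. IFIT1B had 2 counts, both in 1 OVCAR3 olaparib library, and 0 in the other 3 groups, so the paralog inside the cluster was not detectable at this depth also in UWB1.289 with olaparib, where IFIT3 and IFIT1 on either side of it stood at means of 87.6 and 89.4 CPM.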

How the data were processed

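RNA was measured in 16 cell line libraries made with the QuantSeq 3′ mRNA kit. Per the labels and the methods, single-end reads were trimmed (BBDuk) and mapped to hg38 (STAR 2.7.9a, 2-pass mode), and the authors deposited raw counts per gene from featureCounts 2.0.0 with GENCODE version 38; strand and multi-mapping settings are not given in the sources used here. Samples were grouped by line and treatment. The deposited counts were tested with edgeR 4.0.16 (R 4.3.3; quasi-likelihood test, TMM, filterByExpr, Benjamini-Hochberg adjustment over all genes tested), within each line, within each treatment, and over 16 libraries for the interaction. The study's thresholds made a call: adjusted p below 0.1, more than 2-fold, average normalized count above 10. All 4 members passed the filter in each comparison. Standard errors were taken from the F statistic, and intervals are 95%. Levels are CPM, and correlations used log2 CPM with a prior count of 2. Ratios of members used raw counts + 0.5. Depth was 5599571 to 7730228 counts, and intervals of low genes reflect it. The fits were tested on simulated data. The members, the 7 gene lists and the tests were chosen with earlier results of these data known. One gene of the lists is counted but not reported here. Genes named are the members, called genes of the lists (those with the largest changes), genes a result turns on, and for each member the 3 genes with the highest correlation; HELZ2, TRIM25, PARP14, PSMB9 and JUN entered by the last rule. Coordinates and transcripts are from GENCODE version 44 (hg38). Replicate numbers were checked for pairing by correlating the deviations of same-numbered DMSO and olaparib libraries over 9536 genes. The r values were 0.139, 0.133, 0.224 and 0.200 in UWB1.289 and 0.0852, 0.165, 0.0346 and 0.130 in OVCAR3. In both lines DMSO replicates 2, 3 and 4 correlated most with the olaparib library of the same number. DMSO replicate 1 correlated most with olaparib replicate 2 in UWB1.289 and with olaparib replicate 4 in OVCAR3. Alternatives were DESeq2 1.42.0, its size factors, no filter, other thresholds, all libraries in 1 fit, a replicate block and each library left out.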

Additional observations from a re-analysis of the deposited data

Results flagged for a closer look

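For all 4 members the olaparib effect differed between the lines by the interaction test of edgeR: the log2 fold change in UWB1.289 minus that in OVCAR3 was 2.73 for IFIT1, 1.75 for IFIT2, 2.81 for IFIT3 and 1.41 for IFIT5, each past an adjusted p of 0.1. Dose and medium differed along with the line, and their parts cannot be told apart. One library stood apart within its group: IFIT3 in UWB1.289 with DMSO was 9.34 CPM in replicate 2 against 6.998 to 7.23 CPM in the other 3 replicates. This was the only 1 of 16 combinations of gene and group with such a gap by Dixon's criterion, which chance alone marks in about 1 of 20.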

How the results depend on the processing

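In UWB1.289 the 4 members stayed called under all 16 alternatives, and in the interaction each stayed higher with an adjusted p of at most 0.00508 under all 23. Between the lines with olaparib, IFIT1, IFIT2 and IFIT3 stayed called under all 15. Other calls changed with the thresholds. Without a fold threshold, 3 members were called in OVCAR3 (IFIT2 at 0.83 and IFIT3 at 0.71 were added) and 3 between the lines with DMSO (IFIT2 at 0.95 and IFIT5 at -0.97 were added), and IFIT5 between the lines with olaparib, at 0.44, was called too. With an average count above 50 required, 0 members were called in OVCAR3 and 0 between the lines with DMSO, since IFIT1, at 1.17 and 1.83, has too few counts. Leaving out 1 library left the OVCAR3 count of 1 as it was, with IFIT1 between 1.004 and 1.38. The DMSO count moved between 1 and 2: IFIT2 ranged from 0.90 to 1.02 and was called without OVCAR3 DMSO replicate 2 (1.02), and IFIT5 ranged from -1.25 to -0.84 and was called without UWB1.289 DMSO replicate 4 (-1.25) or OVCAR3 DMSO replicate 3 (-1.02). The OVCAR3 ratio of IFIT2 to IFIT3, which did not pass its test, ranged from -0.031 (without OVCAR3 DMSO replicate 3) to 0.16. The OVCAR3 ratio of IFIT1 to IFIT5 lost its call in 6 of 8 such repeats (0.78 to 1.25 over all 8), where the smallest possible p is larger. With the replicate block IFIT5 in UWB1.289 was 1.59. The block was run for the olaparib effects and the interaction and changed no call of a member in those. Depth limits IFIT1 in OVCAR3 most, at 7 to 36 counts per library.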
